A study of Bos taurus with 8 samples.

Results

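The cattle transcriptome table of 8 tissues held 36801 loci, of which 11915 carried no gene identifier. Far unnamed loci were defined as rows that named no gene, spanned at least 300 bases and lay more than 20000 bases from the nearest locus with an Ensembl transcript identifier on the same chromosome. The rule used position and span and no FPKM value, although a locus without an identifier is in the table only where reads were assembled. In total, 2933 loci met it, which was 7.97% of the table and 31.3% of the 9373 unnamed loci of that span. A locus with an identifier is called a gene below.

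RNA-Seq had been run on 1 library each of nucleated blood cells, frontal cortex, whole testes, intercaruncular uterus, mammary parenchyma, ileum, rumen (the fermenting forestomach of ruminants) and abomasum, their glandular stomach. The study took its methylation tissues from the Hereford cow whose genome was assembled as the cattle reference and from her progeny and relatives, and ran RNA-Seq on the same kinds of tissue, while the RNA labels name the tissue and not the animal. No treatment was given. The study's sample list for its methylation libraries of these tissues gives an adult male for testes, a male fetus for rumen, adult females for uterus and blood cells, and juvenile females for the remaining tissues. With 1 library each, tissue and animal, with its sex and age, cannot be told apart, and no difference between tissues has a replicate check or a test. The table holds no gene symbols, so the tissue labels were not checked against marker genes. The values are FPKM, fragment numbers scaled by transcript length and by library size, which are levels per length. Read depth recovered from short loci ranged from 6082000 scaled reads in mammary gland to 15625000 in rumen, and 1 FPKM on 1000 bases stood for 4.42 to 11.4 reads.

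Transcripts assembled far from annotated genes can be long non-coding RNAs, unannotated protein-coding genes, RNA read from repeats or regulatory elements, or pieces of a longer transcript. Testis is known for transcribing a large share of the mammalian genome, and many long non-coding RNAs and young genes are most abundant there. The assembler used by the authors joins overlapping reads into transcripts, and it reports a transcript only above a minimum of supporting fragments.

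The far unnamed loci were mostly seen in a single tissue, and that tissue was most often testes. Of the 2933 loci, 2919 reached 1 FPKM in at least 1 tissue, 14 did not, and 1 was listed at 0 in all 8. Exactly 1 tissue was reached by 2099 loci (71.6%), 2 tissues by 334 (11.4%), 3 tissues by 146 (4.98%), 4 to 7 tissues by 91, 73, 55 and 42, and all 8 tissues by 79 (2.69%). Unnamed loci of the same minimum span within 5000 bases of a gene numbered 4319. Of these, 37.0% were at 1 FPKM in exactly 1 tissue and 8.06% in all 8. Among genes the shares were 9.98% and 35.8%. Unnamed loci are listed only where some library had reads to assemble, and genes regardless of reads (19004 of 24886 were above 0), so the shares of genes are not on equal terms with those of unnamed loci.

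Whole testes had the highest FPKM at 1694 of the 2932 far unnamed loci above 0 (57.8%). Frontal cortex followed with 389 loci (13.3%), nucleated blood cells with 262 (8.94%), uterus with 170, abomasum with 159, rumen with 128, ileum with 83 and mammary gland with 47. Testes also led among near unnamed loci and among genes, but with 29.4% and 31.3% of the loci above 0. At 1 FPKM or more, 1917 far unnamed loci (65.4%) were detected in testes, 688 (23.5%) in frontal cortex and 482 (16.4%) in uterus. The shares of all loci in the table were 55.6%, 45.5% and 44.0%. The other tissues held between 373 (rumen, 12.7%) and 448 (blood cells, 15.3%), against 40.7% and 38.3% of all loci. Only in testes was the share of far loci above that of the table. Of the 2099 loci seen in 1 tissue, 1498 were seen in testes, 234 in frontal cortex, 117 in blood cells and 18 in mammary gland, the shallowest library. Testes also led the single-tissue loci of the whole table (4699 of 8678), of near unnamed loci (764 of 1597) and of genes (1452 of 2483). The table had 1097 such loci in frontal cortex, 460 in blood cells and 131 in mammary gland. Without the testes library only 746 far unnamed loci would count as seen in a single tissue.

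**Figure D1:**
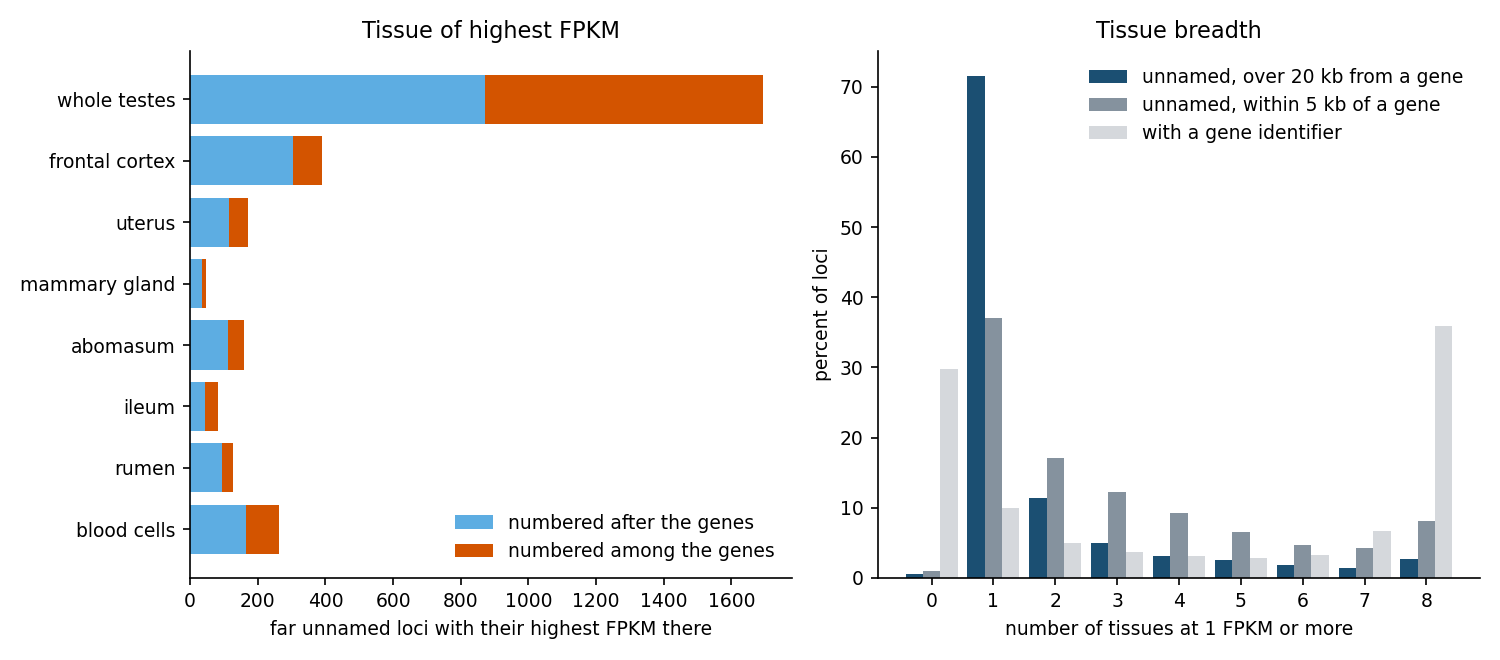
Left, bars count the far unnamed loci by the tissue of their highest FPKM (1 library per tissue), split by where their locus numbers fall. Right, bars give the percent of loci (y axis) by the number of tissues at 1 FPKM or more (x axis) for far unnamed loci, near unnamed loci and genes; 71.6% of the far loci stand at 1 tissue, and 35.8% of the genes at 8.

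Enrichment in a tissue was called at 1 FPKM or more, where FPKM + 1 exceeded that of every other tissue by a factor of 5 or more. By this rule 1725 far unnamed loci (58.8%) were enriched in some tissue, against 27.5% of near unnamed loci and 23.4% of all loci in the table. The table includes genes, which are listed regardless of reads, so its shares are not on equal terms with those of unnamed loci. In testes, 1382 (47.1%) were enriched, where the table as a whole gave 12.7%. Shares elsewhere were under 5%, below that of the table in abomasum and above it in the other 6 tissues. The share of the table counts loci at 0 (30914 of 36801 were above 0), so the small difference in rumen gives no direction. Frontal cortex had 121 enriched far loci (4.13% against 2.79%), rumen 63 (2.15% against 1.96%), nucleated blood cells 55 (1.88% against 1.18%) and abomasum 54 (1.84% against 3.69%). Ileum had 19 (0.648% against 0.408%), uterus 18 (0.614% against 0.402%) and mammary gland 13 (0.443% against 0.220%). Among the near unnamed loci, which are listed on the same terms, 15.7% were enriched in testes and 4.35% in frontal cortex. The share in cortex was thus no higher far from genes than near them. Abomasum had 3.54% of the near loci enriched, rumen 1.85%, blood cells 1.41%, uterus 0.347%, ileum 0.162% and mammary gland 0.0926%.

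The locus numbers of the table split the far loci into 2 kinds that differed in span, level and tissue. On 31 sequences, among them every autosome and the X chromosome, the numbers run along the sequence 3 times. Genes occur only in the first runs, and the last run holds 0 of 24862 genes. Of the far loci, 1190 were numbered among the genes, 1742 after them, and 1 could not be placed. A transcript without splice junctions has no strand of its own in an unstranded library, but what the authors' software used to number loci is not given in the sources used here.

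Loci numbered after the genes were short. Alone in their interval, they had a median span of 577 bases (300 to 6676), against 4794.5 bases (302 to 599550) for those numbered among the genes. Over all loci of each kind that reached 1 FPKM, alone or not, the median highest FPKM was 6.19 after the genes and 13.3 among them. Testes was highest at 871 of the 1742 and at 69.1% of the loci numbered among the genes, whereas frontal cortex was highest at 17.5% and 7.15%. The share seen in a single tissue was nearly the same, at 71.1% and 72.4%. With the full span taken as the transcript length, 2849 of 2856 FPKM values under 15 reads (99.8%) of the loci numbered after the genes equalled a whole number of reads within 0.05. For those numbered among the genes, only 33 of 390 values (8.46%) did so, and for genes 11.1%. The full span therefore served as the length of the transcript for the first kind and not for the second, and reads could be stated for the 1629 loci of the first kind that were alone in their interval.

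These 1629 loci rested on few reads. In the library with the most reads, the median was 19 reads, the quartiles were 13 and 37, and the highest was 5177. There were 7 loci at 9 reads and 125 at 10 reads. A total of 824 loci (50.6%) had 10 to 20 reads, 57 (3.50%) had fewer than 10, and 140 had 100 or more. A count of 10 reads has a 95% Poisson interval of 4.80 to 18.4 reads, and one of 20 reads an interval of 12.2 to 30.9, for counting error only.

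**Figure D2:**
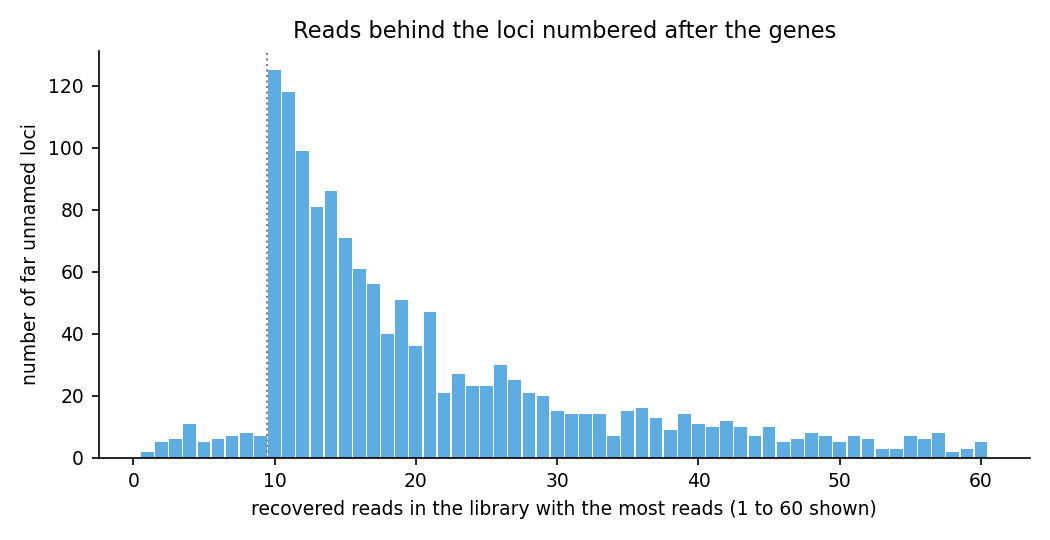
Bars count the far unnamed loci numbered after the genes and alone in their interval (y axis) by the recovered reads in the library with the most reads (x axis, 1 to 60 reads). The dotted line marks the step from 7 loci at 9 reads to 125 loci at 10 reads.

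From 10 reads upward, the share of loci seen in a single tissue fell as reads grew, while the 57 loci under 10 reads stood lower, at 54.4% in 1 tissue and 29.8% with reads in no other library. Of the loci with 10 to 20 reads, 76.3% reached 1 FPKM in exactly 1 tissue, and 55.0% had reads in no other library. With 21 to 50 reads the shares were 72.1% and 46.8%, and with 51 to 99 reads 65.8% and 40.3%. Of the 140 loci with 100 or more reads, 75 (53.6%) were still at 1 FPKM in 1 tissue only, 34 (24.3%) had reads in 1 library only, and 19 (13.6%) reached 1 FPKM in all 8. Testes was highest at 15.8% of the loci under 10 reads, at 51.9%, 53.6% and 50.3% of those with 10 to 20, 21 to 50 and 51 to 99 reads, and at 40.0% of those with 100 or more. Calls of enrichment rested on the same thin counts. Of 831 enriched loci with known reads, 192 (23.1%) kept a fold of 5 when every library below 3 reads was raised to 3, a floor that stands for the one-sided 95% limit of a count of 0. In testes 131 of 624 did so, in frontal cortex 30 of 85, in rumen 13 of 42 and in blood cells 2 of 22.

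Distance from genes was then compared with tissue over all unnamed loci of at least 300 bases. Testes was highest at 29.4% of the 4319 loci within 5 kb of a gene, at 38.0% of the 2005 loci at 5 to 20 kb and at 51.9% of the 1155 loci at 20 to 50 kb. The share was 57.7% at 50 to 100 kb, 58.7% at 100 to 200 kb, 71.0% at 200 to 500 kb and 76.1% of the 67 loci beyond 500 kb. Each step away from genes thus held a larger share of loci led by testes. The share seen in exactly 1 tissue rose over the same bins from 37.0% to 86.6%.

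The rise was present in both kinds of locus as far as 500 kb, apart from 1 step. Among loci numbered among the genes, testes was highest at 48.3% within 5 kb, at 63.2% at 20 to 50 kb and at 80.1% at 200 to 500 kb. For loci numbered after the genes the same bins gave 23.8%, 44.7% and 63.7%, with 52.2% at 50 to 100 kb and 49.1% at 100 to 200 kb. Beyond 500 kb the kinds parted, with testes highest at 34 of 35 loci numbered among the genes and 17 of 32 numbered after them. The share of loci numbered among the genes itself grew with distance, from 22.8% within 5 kb to 52.2% beyond 500 kb. When neighbours within 10000 bases were joined and counted once, testes led at 32.8% of units within 5 kb and at 79.7% of the 59 units beyond 500 kb. The median highest FPKM over all loci stood between 6.46 and 9.45 in every bin.

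**Figure D3:**
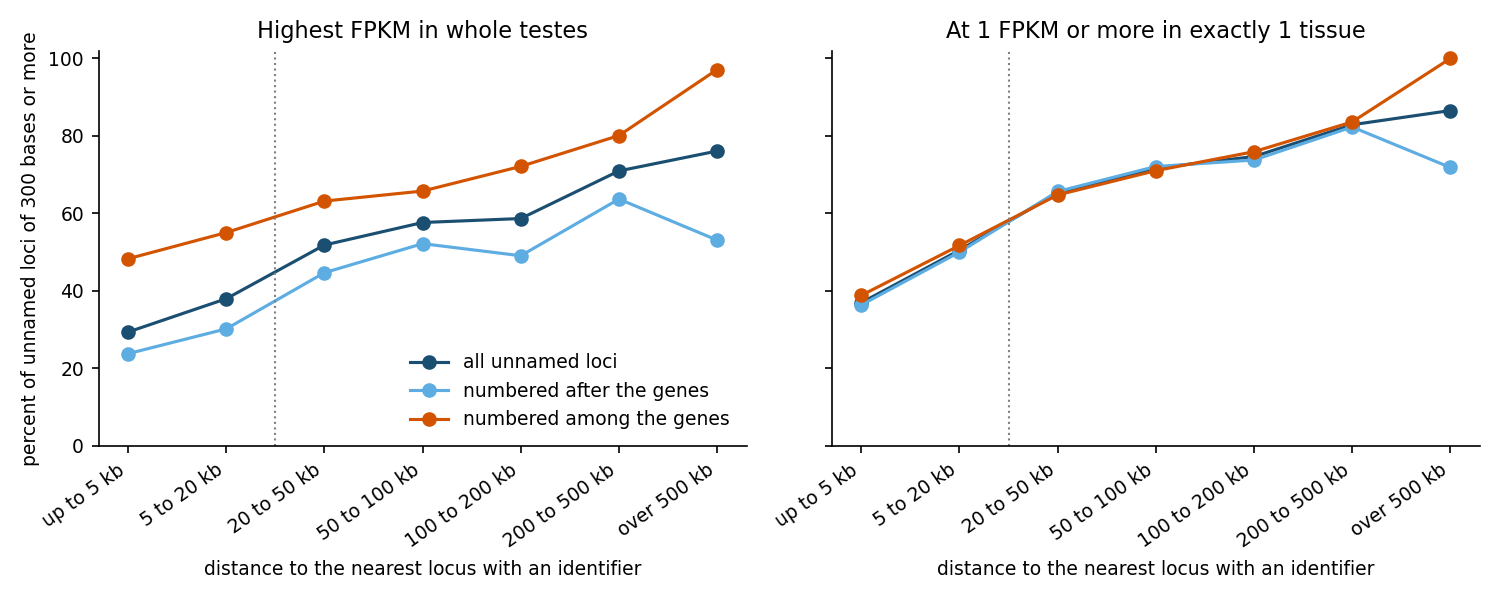
Points give the percent of unnamed loci of at least 300 bases (y axis) with their highest FPKM in testes (left) or at 1 FPKM in exactly 1 tissue (right), by distance to the nearest gene (x axis), for all loci and for both kinds of numbering. The dotted line marks the 20 kb limit, and testes-led loci go from 29.4% in the nearest bin to 76.1% in the farthest.

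Among the far loci alone, the median distance to a gene was 65913 bases, with quartiles of 36121 and 138970 bases and a maximum of 1561910. The median span was 1027 bases. Loci of 300 to under 500 bases numbered 659, of which 95.6% were numbered after the genes, while 351 loci spanned 20000 bases or more and 17.9% of those were. Testes was highest at 61.5% of the loci under 500 bases, at 49.9% of those of 500 to under 1000 bases and at 68.3% of those of 5000 to under 20000 bases, so span and tissue did not move together in 1 direction.

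Every autosome held far loci, at densities that differed between chromosomes. On the autosomes 47.9% of the sequence lay more than 20000 bases from a gene, and it held 2.33 far loci per Mb. The density ran from 1.35 on chromosome 1 to 4.08 on chromosome 23, with 118 and 82 loci. Chromosome 12 held the most loci, 169, at 2.90 per Mb. The X chromosome, where 60.3% of the sequence lay that far from a gene, held 126 loci at 1.40 per Mb. A further 4 loci lay on unplaced sequences.

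Testes was highest at 54 of the 126 far loci of the X chromosome (42.9%) and at 1639 of the 2802 autosomal ones above 0 (58.5%). Near unnamed loci showed 22.7% on X and 29.6% on autosomes, and genes 32.7% and 31.2%. Between autosomes the share ranged from 41.3% on chromosome 29 (26 of 63 loci) to 78.6% on chromosome 27 (44 of 56). Of the 63 rumen-enriched far loci, 21 (33.3%) lay on chromosome 3, which held 4.09% of all far loci and 8.88% of the 721 rumen-enriched loci of the table. Of the 21, 15 were among 18 far loci between bases 17422785 and 18722503, a window set after the values were seen.

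The far loci often lay near each other. When loci with gaps of at most 10000 bases were joined, they formed 2100 units. Of these, 1577 were single loci and 523 held 2 or more, together 1356 loci (46.2%). In 406 of the 523 units (77.6%) every locus had its highest FPKM in the same tissue, and in 232 of those (57.1%, against 57.8% of all far loci led by testes) the tissue was testes. Near unnamed loci joined in the same way agreed in 443 of 835 units (53.1%), 138 of them led by testes. The shares of loci led by testes differ between these sets, so the shares of units are given side by side without a comparison. In addition, 245 loci shared their listed interval with at least 1 other far locus, in 103 intervals of up to 6 loci, and 84 of those intervals held both kinds of numbering. For such loci the span is that of the interval.

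The 3 strings of neighbours taken as those with the most loci were each detected in 1 tissue only. On chromosome 16, 10 loci in 3 intervals stretched over 261659 bases (chr16:6995798-7257456, UMD3.1), at least 331463 bases from any gene. All 10 were detected in testes, at 1.33 to 54.9 FPKM with a median of 4.59, and a single uterus value of 0.038 was the only other value above 0. The 3 highest, XLOC_009994, XLOC_009574 and XLOC_009180, shared 1 interval of 203439 bases and stood at 54.9, 52.4 and 52.0 FPKM in testes. The remaining 7 loci of the string had 1.33 to 10.2 FPKM there.

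On chromosome 22, 10 separate loci lay within 22339 bases (chr22:50471735-50494073), 9 of them numbered after the genes. All 10 were detected in abomasum, at 2.65 to 14.6 FPKM with a median of 7.76. Ileum had 4 of them above 0, at no more than 0.828 FPKM, uterus had 1 at 0.151, and the other 5 libraries were at 0 throughout. On chromosome 12, 8 loci within 16994 bases (chr12:90118258-90135251) were detected in testes at 2.85 to 19.8 FPKM with a median of 11.9, and the 7 other libraries were at 0 at every one. In size this string equalled 2 others of 8 loci and was taken as the first by chromosome name and position.

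**Figure D4:**
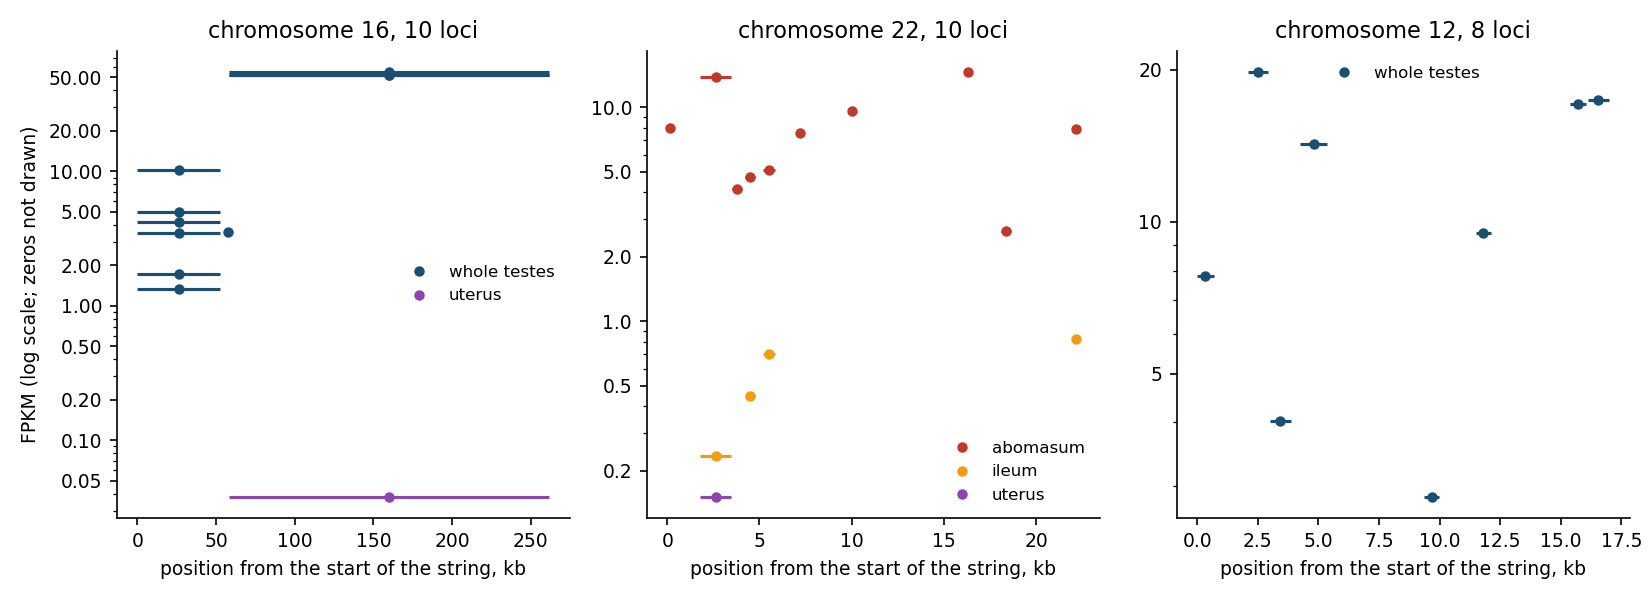
Each panel plots the FPKM (log axis, zeros not drawn) of the loci in 1 string of neighbours against position from the start of the string in kb; horizontal lines show each locus's listed interval and colours the tissue. In the chromosome 16 and 12 strings the testes values of 1.33 to 54.9 and 2.85 to 19.8 stand nearly or entirely alone, and in the chromosome 22 string the abomasum values of 2.65 to 14.6 lie above all values of ileum and uterus.

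Among the far loci led by each tissue, meaning those with their highest FPKM there, the loci with the highest values were of several sorts. Loci led by another tissue could stand higher in the same library. In testes, XLOC_007055 (chr14:667488-668226, 739 bases, 48557 bases from a gene) had 3857 FPKM and XLOC_008138 (chr15:76649797-76651921) had 583 FPKM, and both were at 0 in the 7 other libraries. Both were numbered among the genes, so their reads are not known from the span. In these rows the FPKM would be met by 21 reads on a transcript of 108 bases for XLOC_007055 and by 7 reads on 118 bases for XLOC_008138, among other pairs of length and reads. A high FPKM here can thus stand for few reads on a short transcript, and the lengths of these transcripts were not known.

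Of the tissue leaders, 2 had known reads, and the one in frontal cortex had by far the most. XLOC_036533 (chrX:15330958-15331377, 420 bases) had 1354.5 FPKM in frontal cortex. It had 309.9 in uterus, 192.0 in mammary gland, 181.7 in rumen, 145.1 in blood cells, 136.6 in abomasum, 121.1 in testes and 120.7 in ileum. These values stood for 2433 reads in frontal cortex and 175 to 606 reads elsewhere. Its level in cortex was 4.37 times that of uterus, the next tissue, and it was abundant in all 8. XLOC_029139 (chr5:98931625-98935094) had 211.7 FPKM in frontal cortex, 28.6 in mammary gland and at most 0.702 in any other library.

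In uterus, XLOC_024059 (chr29:50150763-50153145) had 391.4 FPKM. It had 60.7 FPKM in mammary gland, 46.4 in testes, 30.3 in ileum, 11.96 in abomasum, 9.13 in rumen, 1.36 in frontal cortex and 0.977 in blood cells. XLOC_035608 (chrX:82261006-82294482), which shared its interval of 33477 bases with 3 other loci, stood at 57.8 FPKM in uterus, 36.2 in abomasum, 37.0 in mammary gland, 32.8 in frontal cortex, 24.9 in blood cells, 23.6 in ileum and 17.1 in rumen, and at 0.378 in testes. It was the inverse of the common pattern, with every tissue but testes above 17 FPKM. In mammary gland, XLOC_002182 (chr10:21149059-21149453) had 81.1 FPKM, with 27.6 in testes and 0 in the other libraries. XLOC_020148 (chr23:37876345-37876662, 318 bases) had 41.0 FPKM in mammary gland and 29.8 in frontal cortex, which stood for 25 and 28 reads, so those tissues were not distinguishable at this depth. Its other libraries held 12 reads in rumen and at most 6 elsewhere.

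The highest values of all stood in abomasum and were identical. XLOC_008298 (chr15:5608049-5612441), XLOC_036511 (chrX:148461497-148462918) and, tied with them, XLOC_001093 each had 66583.3 FPKM in abomasum and 0 elsewhere, and together they made up 88.1% of the summed FPKM of the far loci in that library. The same value was the lowest among 49 unnamed loci of 89 bases above 0 in abomasum, where 29 loci had exactly it. It equals 10 reads on 89 bases or 5 reads on 88 bases. The FPKM of the 3 loci therefore match a handful of reads on a transcript far shorter than their listed spans of 1422 to 4393 bases, and sums of FPKM over the far loci are not used here as a measure of abundance.

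In ileum, XLOC_000490 (chr1:141459651-141531673) had 397.9 FPKM, next to 345.5 in rumen, 244.9 in frontal cortex, 27.1 in uterus, 8.91 in abomasum and 0 in testes, mammary gland and blood cells. XLOC_024471 (chr29:51504200-51505154) was nearly limited to ileum, with 295.5 FPKM there, 0.354 in blood cells and 0 in the other 6 libraries. In rumen, XLOC_026245 (chr3:17700980-17743021) had 10450.5 FPKM and XLOC_024837 (chr3:17422785-17423987) 5871 FPKM, against at most 7.68 and 4.25 in any other library, and the reads behind these values are not known. Both lie in the chromosome 3 window described above, in which 9 far loci had at least 100 FPKM in rumen, of 19 such loci in the genome.

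In nucleated blood cells, XLOC_031800 (chr7:6615437-6616960) had 687.9 FPKM and between 26.2 and 46.5 FPKM in all 7 other libraries, a level 14.8 times that of rumen, the next tissue, with reads not known. XLOC_034351 (chr9:76153657-76154023) had 278.6 FPKM in blood cells, 25.9 in ileum, 24.7 in mammary gland, 17.1 in abomasum, 9.96 in uterus, 9.03 in testes, 3.50 in frontal cortex and 0 in rumen. Both leaders of blood cells were thus also found in most solid tissues, in contrast to the leaders of testes.

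**Figure D5:**
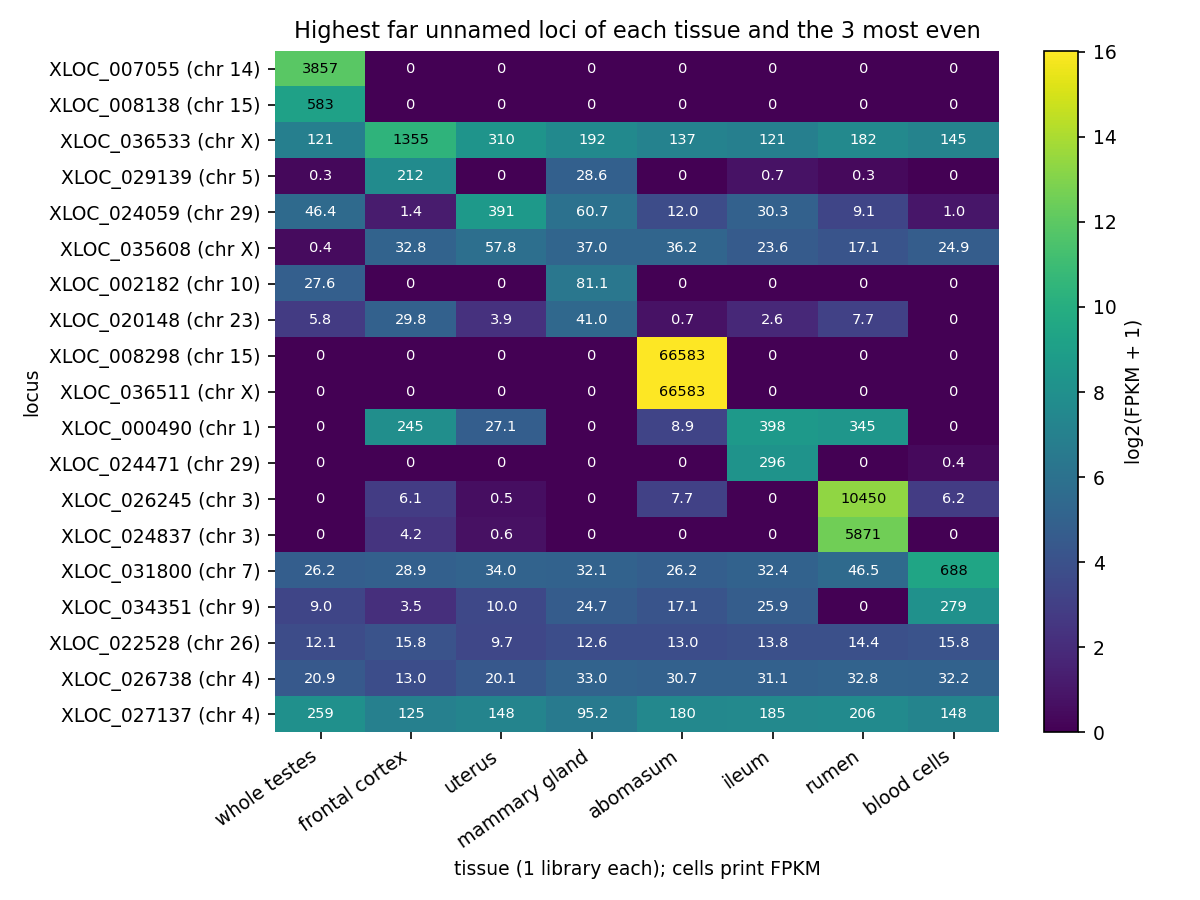
Rows are the 2 far unnamed loci with the highest FPKM among those led by each tissue and the 3 most even loci, columns the 8 tissues (1 library each), colour log2(FPKM + 1) and printed figures FPKM. The leaders of testes and abomasum have 0 in all other columns, while XLOC_036533, XLOC_031800 and the 3 even rows are above 9 FPKM in all 8.

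The 79 loci at 1 FPKM or more in all 8 tissues comprised 45 numbered among the genes and 34 after them. Their median FPKM over tissues ranged from 1.89 to 163.9. Testes was highest at 23 of them, blood cells at 18, frontal cortex at 13 and abomasum at 10. Evenness was measured with tau, an index on log2(FPKM + 1) that is 0 for equal levels and 1 where just 1 tissue has the transcript. Over the 79 loci tau had a median of 0.252 and ranged from 0.067 to 0.634, whereas over the 2919 detected far loci its median was 1.

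The most even of them, XLOC_022528 (chr26:1563380-1563789, 410 bases, 745764 bases from a gene), had 15.8 FPKM in blood cells and in frontal cortex, 14.4 in rumen, 13.8 in ileum, 12.6 in mammary gland, 12.1 in testes and 9.67 in uterus, and the value of abomasum lay between those of ileum and mammary gland. It had 14 to 41 reads per library, and the 95% Poisson intervals of its lowest value (5.73 to 15.3 FPKM, in uterus) and its highest (11.02 to 22.01 FPKM, in blood cells) overlapped. XLOC_026738 (chr4:59913240-59913965) ran from 13.03 FPKM in frontal cortex to 33.0 in mammary gland. XLOC_027137 (chr4:13938815-13964169) ran from 95.2 FPKM in mammary gland to 258.9 in testes and was the most abundant of the 3. The 3 even loci thus ranged from a locus of 410 bases to an interval of 25355 bases, the latter 36276 bases from a gene.

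Between these ends, 334 loci (11.4%) were detected in exactly 2 tissues, against 8.40% of all loci and 17.0% of near unnamed loci. Testes with frontal cortex was the most frequent pair, at 66 loci, followed by ileum with blood cells at 28, frontal cortex with uterus at 24 and abomasum with ileum at 20. Testes and frontal cortex were also the tissues with the most detected far loci. Pairs were not counted over other loci, so none is read as particular to the far loci. Correlations across the 2933 loci on the log2(FPKM + 1) scale were highest between uterus and mammary gland (Pearson r = 0.67), mammary gland and ileum (0.65) and uterus and ileum (0.62). Pairs with testes were the only negative ones, the highest at -0.07 with mammary gland. These are descriptions across loci, which are not independent, and the libraries share the listing of a locus by its assembled reads.

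The longest far locus, XLOC_025132 (chr3:73550381-74149930), spanned 599550 bases and lay 286466 bases from a gene. It had 13.6 FPKM in frontal cortex, between 0.038 and 0.264 in 6 libraries and 0 in blood cells, with reads not known. XLOC_015131 (chr2:67307798-67768349, 460552 bases) had 3.93 FPKM in testes, 3.80 in frontal cortex, 0.401 in ileum and 0 elsewhere. XLOC_004727 (chr12:26732965-27148536), in an interval of 415572 bases with 2 other loci, had 20.1 FPKM in testes, 9.28 in frontal cortex and at most 1.17 in any other library. Frontal cortex was thus among the 2 highest tissues at all 3.

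The farthest from any gene were XLOC_033872 (chr8:34880655-34881413) and XLOC_033871 (chr8:34837599-34838337), at 1561910 and 1518850 bases. They had 2.76 and 3.08 FPKM in frontal cortex, from 13 and 14 reads, and no reads in the other libraries. Set against a floor of 3 reads in each other library, the cortex values were 2.82 and 3.04 times as high, with the counting error of 13 and 14 reads not included. XLOC_025017 (chr3:37999210-38000734), at 1112820 bases, had 6.02 FPKM in testes and 0 in the 7 others.

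Values just inside and just outside the limits of the rule are given once, as a description. Of the members with the shortest span, 300 bases, XLOC_008878 and XLOC_032586 each had 12.4 FPKM in testes from 11 reads and 0 elsewhere. That span was shared by other members not led by testes, such as XLOC_019017 with 9.58 FPKM in abomasum and 0 elsewhere. Just under the limit, at 299 bases, XLOC_002814 had 17.6 FPKM in abomasum from 20 reads, and XLOC_012384 had 404.5 FPKM in blood cells. Just inside the distance limit, at 20006 and 20008 bases, XLOC_015532 had 2.48 FPKM and XLOC_014585 had 7.49 FPKM in frontal cortex. Just outside it, at 19998 and 19996 bases, XLOC_023124 had 7.39 FPKM in testes and XLOC_009013 had 7.35 FPKM in abomasum.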

How the data were processed

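The authors aligned single-end reads of total RNA libraries (TruSeq v2, a kit that marks no strand) to UMD3.1 with TopHat2 2.0.13, per the labels, and assembled and compared transcripts with Cufflinks. The deposited table gives FPKM, scaled between libraries by the authors' software, for 28 pairs of tissues. The authors' fold changes, test statistics, p-values and q-values were not used. FPKM of a library were the same in all its pairs, and no far locus had a failed estimate. Positions are 1-based on UMD3.1.

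Reads were recovered with an effective length from fragments of 200 bases (SD 80), shorter than 87 left out, and the smallest depth giving whole reads at 95% or more of the unnamed loci of 88 to 130 bases. This depth is scaled, not the number of mapped reads. Steps were tested on simulated data (Python 3.11.15, pandas 2.3.3). The rule for named loci took the 2 highest among those led by each tissue and the 3 most even, longest and farthest. It also took the 3 largest strings and 2 loci on each side of both thresholds. Members and lists were chosen with earlier results of these data known. With 1 library per tissue, no test was run.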

Additional observations from a re-analysis of the deposited data

Results flagged for a closer look

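Signal was also found outside the rule. On 75 sequences that hold no gene, 116 unnamed loci of at least 300 bases had no distance and were left out of the far loci, and all 116 reached 1 FPKM in some tissue, which flagged them as data that the comparisons do not use. There were no control samples to set them against. The highest FPKM of a locus was at least 1.32, with a median of 11.7. Exactly 1 tissue was reached by 53 of them (45.7%) and all 8 by 13 (11.2%), and testes was highest at 30 (25.9%). No sample could be compared with others of its group, since each tissue had 1 library.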

How the results depend on the processing

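No paired analysis was possible because there was 1 library for every tissue. Of 224 recomputed counts, 156 stayed within 1.5 times the reported count and 68 did not; the cause was not tested. A rescaling of libraries by the median of genes seen in all 8 tissues left the 8 counts of enriched loci within that limit, and so did the use of loci alone in their interval, chosen after seeing the data, for every count. Leaving out 1 library gave 746 to 2144 loci seen in exactly 1 tissue, with 746 without testes.

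With a distance over 50000 bases the loci numbered 1778, of which the highest FPKM was in testes at 1095, frontal cortex at 222, uterus at 84, mammary gland at 29, abomasum at 77, rumen at 70 and blood cells at 141. With a distance over 10000 bases, abomasum led at 241 and rumen at 203. With spans of at least 1000 bases the loci numbered 1484, and the counts were 895 for testes, 183 for frontal cortex, 92 for uterus, 24 for mammary gland, 68 for abomasum, 47 for ileum, 45 for rumen and 129 for blood cells. With spans of at least 200 bases abomasum led at 254. The share led by testes was 54.2% to 61.7% under every setting of distance, span, joining or filter. With neighbours joined (a unit for these counts chosen after seeing the data), frontal cortex led at 257 units, uterus at 105 units, mammary gland at 31, abomasum at 99, ileum at 52 and blood cells at 174, and 9 were enriched in uterus, 8 in mammary gland and 38 in rumen.

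Detection moved with the threshold. With FPKM above 0, 679 loci were detected in blood cells, 1037 in frontal cortex, 803 in ileum, 599 in rumen, 900 in uterus, 726 in mammary gland and 200 in all 8. At 0.1 FPKM the counts were 776 in ileum, 566 in rumen, 871 in uterus, 715 in mammary gland and 184 in all 8. At 5 FPKM they were 206 in abomasum, 194 in blood cells, 282 in frontal cortex, 144 in ileum, 192 in rumen, 136 in uterus, 134 in mammary gland and 33 in all 8.

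Enrichment at 2-fold gave 104 loci in abomasum, 185 in blood cells, 308 in frontal cortex, 45 in ileum, 23 in mammary gland, 98 in rumen and 75 in uterus. At 10-fold there were 27 in abomasum, 18 in blood cells, 34 in frontal cortex, 1 in mammary gland, 36 in rumen, 778 in testes and 3 in uterus. A pseudocount of 0.1 gave 235 in frontal cortex, 61 in uterus, 33 in ileum and 119 in blood cells. Depth limits what these counts can show, since 3 reads on 1000 bases stood for 0.264 FPKM in rumen and 0.679 FPKM in mammary gland.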
